A study of Mus musculus with 12 samples.

Results

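Pleiotrophin (Ptn) and midkine (Mdk), the 2 members of a small family of secreted heparin-binding growth factors, were followed with 3 of their receptors in podocytes of diabetic mice with and without the histone methyltransferase Nsd2. The 5 genes were taken by symbol from the count table of each age, as the growth factors Ptn and Mdk, the receptor phosphatase Ptprz1, the heparan sulfate proteoglycan Sdc3 and the receptor tyrosine kinase Alk. All 5 were listed at both ages, among 23829 genes at 20 weeks and 23777 at 28 weeks, and 4 of the 5 carried enough reads to be tested, the exception being Alk. The genes were proposed with earlier results of these data in view, and are treated here as selected on the fold change of Ptn between genotypes at 20 weeks. The 20-week values of these genes are therefore a description with no test, and the tests below are on the separate libraries of 28 weeks. Whether 28-week values also entered the choice is not known, so the 28-week p-values of these genes are not independent evidence.

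RNA sequencing was done on primary podocytes, the foot-process cells on the outer face of the glomerular filter, from mice made diabetic with a high-fat diet and streptozotocin (HFD/STZ). Knockout mice were Cre+/Nsd2fl/fl, with deletion in podocytes, and control mice were Cre-/Nsd2fl/fl, so both genotypes carried the floxed alleles and the diabetic treatment and there was no non-diabetic group. Which promoter drove Cre was not stated. Each of 4 groups (control and knockout at 20 weeks of age, control and knockout at 28 weeks of age) held 3 numbered libraries, with total counts from 31405349 to 38989180 per library. Nothing in the labels ties the 3 libraries of a group to different mice, and the p-values below therefore cover the scatter of libraries alone, which could be technical.

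Pleiotrophin and midkine bind heparan and chondroitin sulfate chains and signal through several receptors at once. Binding to Ptprz1 is known to cluster this phosphatase and reduce its activity, which raises tyrosine phosphorylation of its substrates, and syndecans such as Sdc3 present the growth factors at the cell surface. Alk was described as a further receptor, although its best established ligands are the Alkal proteins. In the kidney midkine is known from tubule and mesangial responses to injury and diabetes, and pleiotrophin as a factor made in the embryonic kidney that promotes branching of the ureteric bud.

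The stretches of DNA just before the start of Ptn, of Sdc3 and of Rgs5 are shown because Ptn had the largest fold change of the family, Sdc3 the highest level, and Rgs5, a regulator of G protein signalling that marks pericytes, the profile nearest to that of Ptn over the 12 libraries. They are from RefSeq (GRCm38.p6), 5′ to 3′ on the gene's own strand, and end at the annotated gene start. Capitals mark matches to GGGCGG, the core of the GC box, on either strand. The Ptn stretch is chr6:36810221-36810429 on the minus strand, the Sdc3 stretch chr4:130792287-130792536 on the plus strand and the Rgs5 stretch chr1:169655251-169655500 on the plus strand.
Ptn: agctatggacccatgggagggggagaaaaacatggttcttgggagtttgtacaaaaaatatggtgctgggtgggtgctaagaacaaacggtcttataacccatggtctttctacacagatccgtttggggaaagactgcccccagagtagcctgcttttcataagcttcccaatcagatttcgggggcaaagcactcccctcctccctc
Sdc3: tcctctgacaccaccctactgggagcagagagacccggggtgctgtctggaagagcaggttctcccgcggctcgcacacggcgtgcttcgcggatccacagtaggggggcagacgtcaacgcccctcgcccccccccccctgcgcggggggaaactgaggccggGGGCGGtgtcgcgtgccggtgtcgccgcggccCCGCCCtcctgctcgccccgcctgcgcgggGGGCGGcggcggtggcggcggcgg
Rgs5: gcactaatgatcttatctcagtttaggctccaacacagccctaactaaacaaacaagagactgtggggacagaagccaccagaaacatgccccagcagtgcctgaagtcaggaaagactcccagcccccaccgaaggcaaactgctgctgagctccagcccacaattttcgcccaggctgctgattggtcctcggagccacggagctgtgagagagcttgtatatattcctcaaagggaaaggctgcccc

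The RefSeq table gave a start-site window for 4 of the 5 genes: Ptn, Ptprz1, Sdc3 and Alk. The Ptn window had a GC content of 52.0%, near the median of 52.7% over 32851 windows of the same length, whereas those of Sdc3 and Ptprz1 had 77.7% and 71.7%. GGGCGG, found on either strand in 35.7% of all windows, occurred 3 times in the Sdc3 window, 2 times in the Ptprz1 window and 0 times in the Ptn and Rgs5 windows. Neither Ptn nor Rgs5 held a CArG box (1.63% of all windows), the site of serum response factor, nor GGAATG (14.7%), the core of the TEAD motif, nor TATAAA (13.6%), each searched on both strands. A letter match describes the window only, and nothing about the factors was measured.

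By the GENCODE M21 annotation of GRCm38, Ptn lies on chromosome 6 at 36714929 to 36810220, minus strand, and spans 95292 bases. Ptprz1 lies on the same chromosome at 22875502 to 23052916, plus strand. Mdk is compact, 2493 bases on chromosome 2 at 91929805 to 91932297, minus strand. A processed pseudogene, Mdk-ps1, lies on chromosome 11 at 102545702 to 102546022, and how reads that match both copies were counted is not given, so the level of Mdk is uncertain to that extent. Sdc3 lies on chromosome 4 at 130792537 to 130826319, plus strand, and shares exon bases with Gm12970 and Gm26716 on the other strand, whose reads cannot be told apart from its own without strand information. Alk lies on chromosome 17 at 71868972 to 72604627, minus strand.

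Before the members, 2 features of the libraries bear on the values. Control libraries 2 and 3 at 28 weeks were far more alike than other pairs of a group: their mean chi-square over genes was 4.56, against 74.1 to 223 in the other 11 pairs. They differed by more than sampling noise and were counted as 2, and results at 28 weeks are also given with their counts summed. Knockout library 1 at 28 weeks stood apart in its parietal epithelial sum, with 9631 CPM over 8 genes against 639 and 951 CPM in knockouts 2 and 3. Krt8 (5545 CPM) and Cd24a (2851 CPM) made up most of that sum. Pax2, of the same list, was at 10.8 CPM there, between knockouts 2 and 3 (5.11 and 12.0 CPM). The targeted gene, Nsd2, had no overlap between genotypes and was reduced, at 43.6 ± 8.91 against 79.9 ± 13.8 CPM at 20 weeks and 37.8 ± 4.41 against 81.6 ± 4.96 CPM at 28 weeks (SD, n = 3). Counts per gene do not show which of its exons were read. Levels are counts-per-million (CPM) with TMM-scaled library sizes, and a positive log2 fold change, given with its standard error (SE), means a higher level in knockouts.

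Ptn was low in every control library and higher in every knockout library at both ages. At 20 weeks its level was 2.07, 1.76 and 0.738 CPM in control libraries 1 to 3, against 11.5, 19.8 and 24.6 CPM in the knockout libraries. The lowest knockout stood above the highest control, and control 3 was the lowest library. The log2 fold change was 3.61 (SE 0.46, n = 3 per group), a 12.2-fold difference and the 16th highest of 14853 genes tested. As the value that led to these genes, it is a description. In bulk samples a change in the number of cells of a type and a change in RNA per cell cannot be told apart.

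At 28 weeks Ptn showed the same direction in other libraries, although these may also have entered the choice of the gene. The controls read 0.64, 2.07 and 1.78 CPM, the knockouts 5.24, 30.6 and 11.3 CPM. The groups did not overlap, but the knockouts spread widely, knockout 2 standing highest and knockout 1 lowest. Ptn rose 10.5-fold in the knockouts (log2 3.39, SE 0.77, n = 3 per group; edgeR, adjusted p = 0.0252). In reads, 181 over the 3 controls stood against 1492 over the 3 knockouts.

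The call at 28 weeks depended on which libraries were fitted. It ended without control 1 (log2 3.02, edgeR adjusted p = 0.0707), control 2 (3.69, 0.0723), control 3 (3.52, 0.0861) or knockout 2 (2.44, 0.062), and with control libraries 2 and 3 summed (3.58, 0.0792). It was kept without knockout 1 (3.76, 0.0153) or knockout 3 (3.52, 0.0495). The direction was the same in each of these fits.

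Mdk was near 1 CPM in all 12 libraries and did not pass. Controls of 20 weeks read 0.752, 1.05 and 0.896 CPM, knockouts of that age 1.16, 1.67 and 1.02 CPM, with knockout 3 inside the range of the controls (log2 0.52, SE 0.37). Controls of 28 weeks read 0.768, 0.585 and 0.853 CPM, knockouts 0.721, 2.01 and 1.94 CPM. Knockouts 2 and 3 stood above every control, and knockout 1 lay among them. The log2 fold change at 28 weeks was 1.08 (SE 0.45, n = 3 per group; edgeR, adjusted p = 0.147). Without knockout 1, the knockout with the lowest Mdk, it was 1.41 and passed (edgeR, adjusted p = 0.0286). That was the only 1 of the 6 fits without 1 library to pass, with adjusted p up to 0.365 (edgeR, without knockout 2). The counts behind Mdk were small, from 23 to 68 reads per library.

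Ptn and Mdk share receptors, so their levels per length were set side by side within each library, where library scaling cancels. FPKM, the authors' value per gene length and library total, was used for this. In the 6 controls the ratio of Ptn to Mdk lay between 0.51 and 2.19, so the pair stood at similar levels. In knockouts the ratio was 6.11, 7.31 and 14.9 at 20 weeks and 4.49, 9.42 and 3.603 at 28 weeks. The lowest knockout ratio was above the highest control ratio of either age. The step in Ptn sets these ratios, and they are given as a description.

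**Figure D1:**
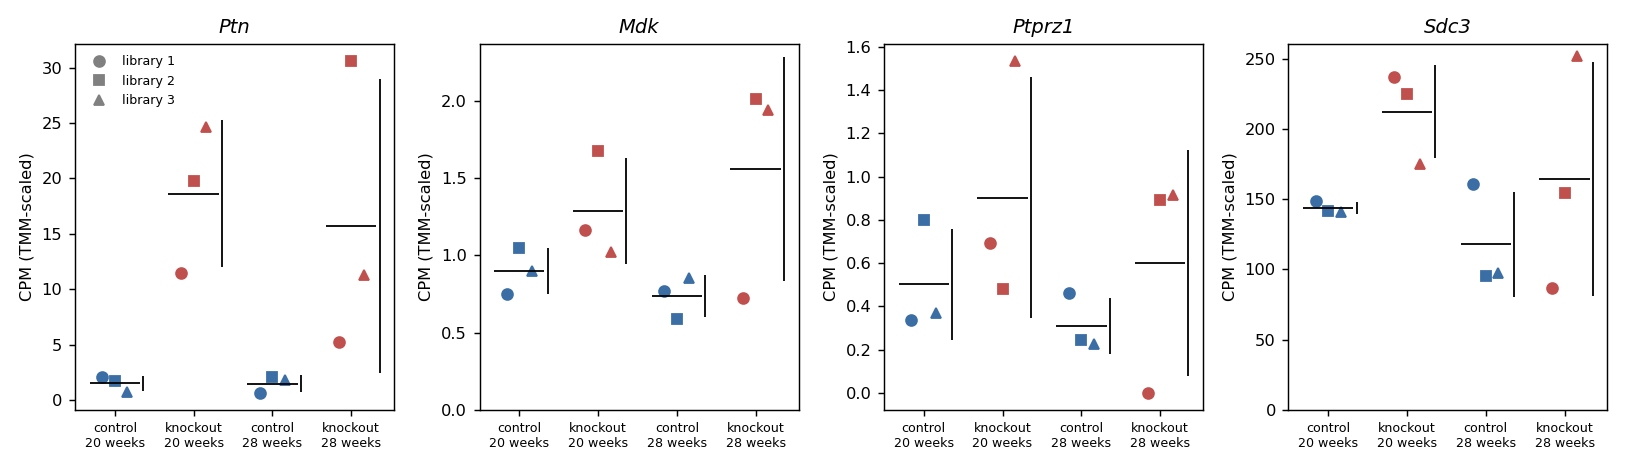
CPM of Ptn, Mdk, Ptprz1 and Sdc3 in each library (points, shape by library number), with the mean of 3 libraries (horizontal line) and its SD (vertical line), controls in blue and knockouts in red; each panel has its own linear axis. Ptn lies at or under 2.07 CPM in all controls and between 5.24 and 30.6 CPM in all knockouts, while the groups overlap at 28 weeks for the other genes.

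Ptprz1, the receptor phosphatase, was barely detected. The 20-week controls gave 0.337, 0.799 and 0.369 CPM, the knockouts 0.692, 0.482 and 1.54 CPM. The 28-week controls gave 0.461, 0.244 and 0.226 CPM, the knockouts 0, 0.89 and 0.914 CPM. Knockout 3 at 20 weeks was the highest library, and the groups overlapped at both ages. A count of 0 in knockout 1 at 28 weeks still allows a level of up to 0.0941 CPM, taking 3 counts as the limit. The log2 fold change was 0.85 (SE 0.58) at 20 weeks and 0.95 (SE 1.08, n = 3 per group; edgeR, adjusted p = 0.589) at 28 weeks, so a difference could not be told from the spread at this depth. With 1 library left out it ran at 28 weeks from 0.47 without knockout 3 (edgeR, adjusted p = 0.825) to 1.53 without knockout 1 (0.0611), and passed in none of the 6 such fits.

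Alk, the receptor tyrosine kinase, had 0 reads in 9 of the 12 libraries. Over the knockouts of 20 weeks 3 reads were counted, 1 in library 1 and 2 in library 3, and over the controls of 28 weeks 1 read, in library 1. The 3 reads correspond to 0.0273 CPM of the summed libraries, with an exact Poisson interval (95%, counting error only) of 0.00562 to 0.0797 CPM. A summed count of 0 in the controls of 20 weeks allows up to 0.0274 CPM and in the knockouts of 28 weeks up to 0.03 CPM, so no fold change is given.

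Sdc3 was the most abundant of the 5 genes and carried from 2767 to 8821 reads per library. The 20-week controls gave 148, 142 and 141 CPM, the knockouts 237, 225 and 175 CPM, with no overlap (log2 0.56, SE 0.17, n = 3 per group). The 28-week controls gave 161, 95.05 and 97.5 CPM, the knockouts 86.8, 154 and 252 CPM. Knockout 1 was then the lowest of the 6 libraries and knockout 3 the highest, and control 1 exceeded 2 of the 3 knockouts. The log2 fold change at 28 weeks was 0.48 (SE 0.41, n = 3 per group; edgeR, adjusted p = 0.461). Without knockout 3 it was -0.01, so the positive value rested on that library.

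Counted together, 1 of the 4 tested genes was called at 20 weeks, where 9.92% of all genes were called, 4.79% higher and 5.13% lower. Groups did not overlap for Ptn and Sdc3, both higher, beside 15.5% of all genes with every knockout above every control and 16.7% with every knockout below. Nothing is read from these counts because the same contrast chose Ptn. At 28 weeks 1 of the 4, Ptn, was called higher, beside 21.2% of all 15011 genes called in either direction, 9.33% higher and 11.9% lower. Knockout libraries all stood above controls for 1 of the 4 at 28 weeks, beside 19.3% of all genes, and stood below controls for none of them, beside 22.8%. A share of 1 in 4 is near these backgrounds, so it says nothing about the family as a group. All 4 tested genes had positive log2 fold changes at both ages, with the median over all genes at 0.01 and 0.07.

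In a model of all 12 libraries the knockout effect on Ptn changed between the ages by -0.20 on the log2 scale (SE 0.91), on Mdk by 0.58 (SE 0.56), on Ptprz1 by 0.10 (SE 1.29) and on Sdc3 by -0.07 (SE 0.46). Each estimate was close to or smaller than its SE, and no test is given because it contains the 20-week values. Ptn in controls differed by -0.01 (SE 0.66) from 20 to 28 weeks and in knockouts by -0.22 (SE 0.62). The value in knockouts rested on knockout 2 at 28 weeks, without which it was -1.16, and the change of the effect was then -1.16 as well. Age coincides with the deposited table in these estimates, so the 2 cannot be told apart.

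The receptors were then compared per length, since reads scale with transcript length. On the FPKM scale Ptprz1 was at 0.0504 ± 0.0252 in controls and 0.0862 ± 0.0546 in knockouts at 20 weeks, and at 0.031 ± 0.0123 and 0.0574 ± 0.0498 at 28 weeks (SD, n = 3). Ptn stood at 0.955 ± 0.459 and 10.9 ± 4.00 FPKM at 20 weeks and at 0.934 ± 0.486 and 9.17 ± 7.68 FPKM at 28 weeks. Sdc3 stood at 25.9 ± 1.67 and 35.8 ± 5.11 FPKM at 20 weeks and at 21.05 ± 6.13 and 28.0 ± 14.5 FPKM at 28 weeks. In every group the order was Sdc3, then Ptn and Mdk, then Ptprz1, then Alk. Ptn and Mdk were neighbours whose ranges overlapped in controls and did not overlap in knockouts of either age.

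Among the 4 syndecans Sdc3 was a minor one. It made up 7.31% to 8.99% of their summed FPKM in controls and 6.13% to 8.65% in knockouts at 20 weeks, and 5.74% to 7.78% and 3.87% to 9.13% at 28 weeks. Sdc4 made up most of the sum, from 56.8% to 72.4% over the 12 libraries. The share of Sdc2, the syndecan of mesenchymal cells, was 12.6% to 17.4% in controls and 20.3% to 31.6% in knockouts at 20 weeks, and 12.2% to 12.8% and 20.0% to 24.6% at 28 weeks. The shares of Sdc3 therefore overlapped between genotypes while those of Sdc2 did not. Other described receptors, picked for this comparison after their values were seen, were also far above Ptprz1. In controls of 28 weeks the integrin subunit Itgav was at 78.5 ± 4.38 FPKM, nucleolin (Ncl) at 90.8 ± 2.69, the endocytic receptor Lrp1 at 9.77 ± 4.77 and Notch2 at 6.56 ± 2.77 FPKM (SD, n = 3).

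**Figure D2:**
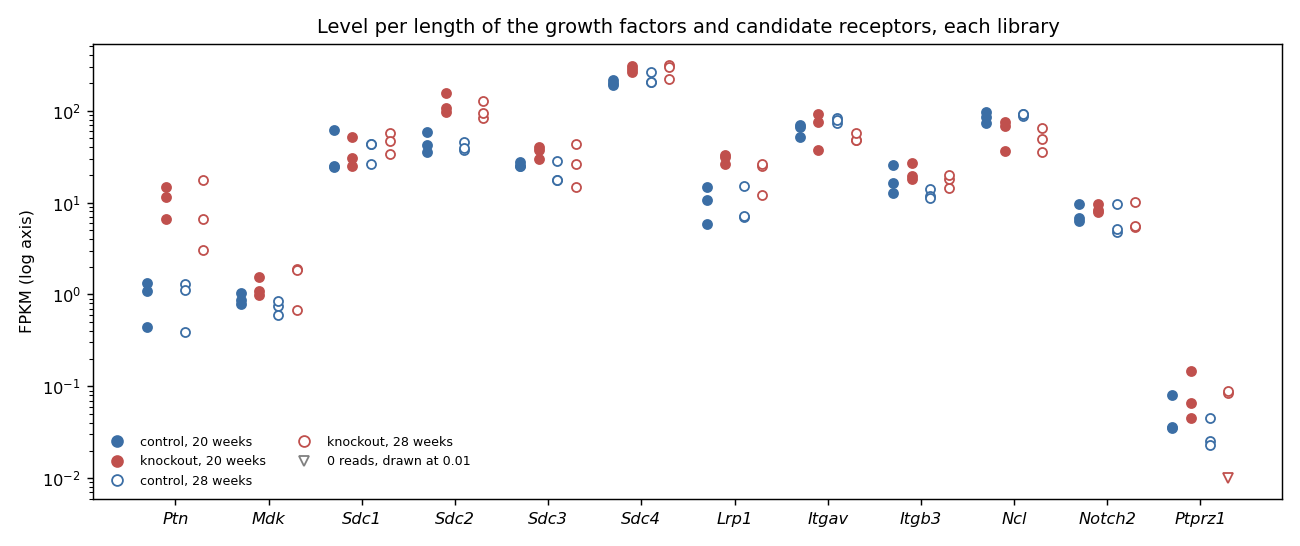
FPKM on a log axis of Ptn, Mdk and receptors described for them, 1 point per library, controls blue and knockouts red, 20 weeks filled and 28 weeks open; a library with 0 reads is drawn as a triangle at 0.01. Of the genes drawn Ptprz1 lies lowest and Sdc4 highest, and Ptn is the gene whose knockouts are farthest above its controls.

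A list of 24 further ligands and receptors of the family was examined for the same contrasts. Of the 23 tested at 28 weeks, 3 rose and 6 fell, 14 not passing, with a median log2 fold change of -0.15, where 9.33% of all genes were called higher and 11.9% lower. Of 22 tested at 20 weeks, 4 rose and 1 fell, 17 not passing, with a median of 0.25, where 4.79% of all genes were called higher and 5.13% lower. These shares of all genes are the ones to set beside the list counts that follow. The syndecan Sdc2 rose at 28 weeks from 131 ± 16.9 to 347 ± 78.7 CPM (log2 1.41, SE 0.20; edgeR, adjusted p = 0.00664), with a log2 fold change of 1.48 (SE 0.26) at 20 weeks. The integrin subunit Itgb1, part of integrin receptors described for the family, went up from 3539 ± 171 to 6087 ± 481 CPM (log2 0.78, SE 0.13; edgeR, adjusted p = 0.0109), a call that ended without control 2 (0.0626) or control 3 (0.0636) and with both summed (0.063). Agrin (Agrn), a matrix heparan sulfate proteoglycan, fell from 1122 ± 186 to 233 ± 47.9 CPM (log2 -2.27, SE 0.21; edgeR, adjusted p = 0.00313). The receptor phosphatase Ptprf fell from 256 ± 29.2 to 45.5 ± 12.6 CPM (log2 -2.49, SE 0.24; edgeR, adjusted p = 0.00323). Their 20-week log2 fold changes were 0.69 (SE 0.23) for Itgb1, -1.12 (SE 0.33) for Agrn and -0.72 (SE 0.40) for Ptprf, none of them called.

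**Figure D3:**
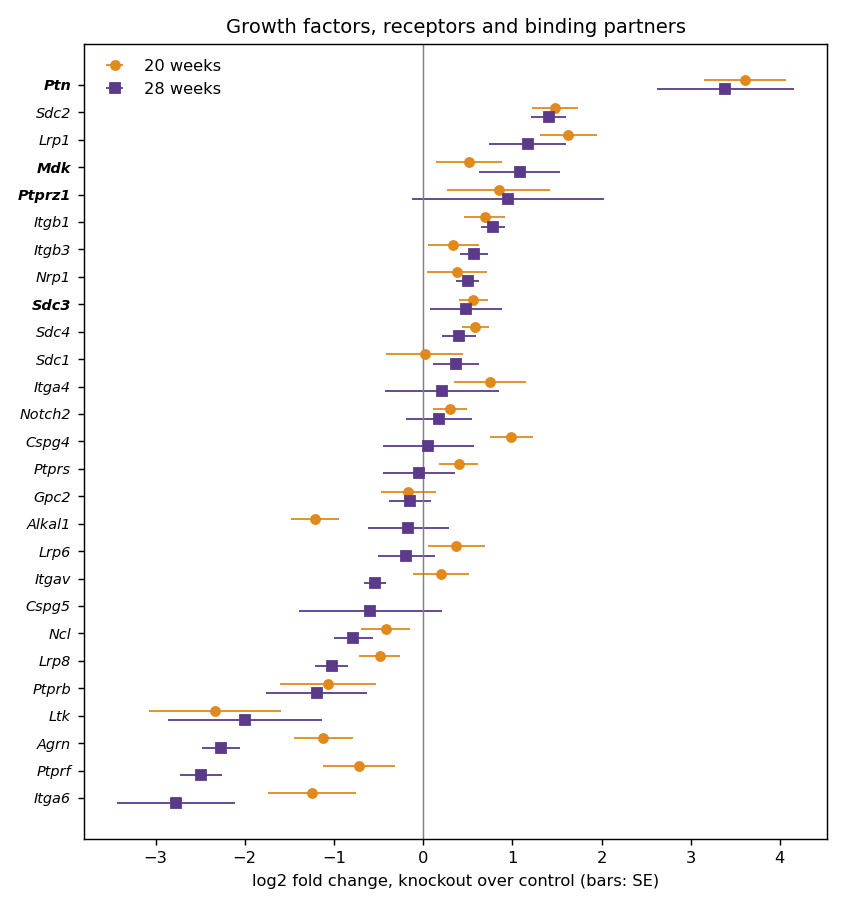
Log2 fold change of knockout over control (x axis, bars SE) at 20 weeks (circles) and 28 weeks (squares) for the tested family genes (bold) and further ligands, receptors and binding partners, ordered by the value at 28 weeks. Ptn stands at the top with 3.61 and 3.39, and Agrn and Ptprf are among the lowest at 28 weeks with -2.27 and -2.49.

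Downstream of the receptors, 20 signalling partners and substrates of Ptprz1 and Alk were tested. Of these, 1 rose and 8 fell at 28 weeks, the remaining 11 not passing (median log2 -0.33), beside 9.33% and 11.9% of all genes. At 20 weeks edgeR called 0 of 20, with 4 at an unadjusted p under 0.05, DESeq2 called 1 lower and limma on FPKM 0. Git1, an adaptor dephosphorylated by Ptprz1, fell at 28 weeks from 91.4 ± 14.9 to 32.5 ± 1.87 CPM (log2 -1.49, SE 0.15; edgeR, adjusted p = 0.00327). Afap1l2, an adaptor of Src family kinases, fell from 39.5 ± 3.23 to 9.95 ± 1.69 CPM (log2 -1.99, SE 0.17; edgeR, adjusted p = 0.00257). Their 20-week log2 fold changes were -0.35 (SE 0.31) for Git1 and -0.83 (SE 0.23) for Afap1l2, neither called by edgeR. Of 7 tested partners of the Ptprz1 ectodomain, 2 fell and 5 did not pass at 28 weeks (median 0.07), and at 20 weeks edgeR called 0 of 6, with 2 at an unadjusted p under 0.05, DESeq2 2 higher and 1 lower and limma on FPKM 0. The adhesion molecule L1cam fell at 28 weeks from 83.2 ± 12.0 to 4.04 ± 2.25 CPM (log2 -4.36, SE 0.51; edgeR, adjusted p = 0.00444). Its 20-week log2 fold change was -1.41 (SE 0.73), not called by edgeR. The other that fell was contactin 1 (Cntn1), at 0.75 ± 0.172 against 0.138 ± 0.132 CPM, whose call (edgeR, adjusted p = 0.0489) held in 1 of the 6 fits without 1 library.

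The glycosaminoglycan chains that hold Ptn and Mdk are built by enzymes whose genes changed in both directions. Of 25 tested genes of heparan sulfate synthesis and editing, 6 rose and 3 fell at 28 weeks (median 0.19), and 2 rose and 1 fell at 20 weeks (median 0.31). The 6-O-sulfotransferases moved apart at 28 weeks: Hs6st1 fell from 219 ± 29.0 to 107 ± 9.02 CPM (log2 -1.03, SE 0.14; edgeR, adjusted p = 0.00618). Hs6st2 rose from 11.7 ± 0.384 to 43.3 ± 18.0 CPM (log2 1.89, SE 0.31; edgeR, adjusted p = 0.01). Of 16 genes of chondroitin and dermatan sulfate synthesis, 4 rose and 1 fell at 28 weeks (median 0.48) and 5 rose and 1 fell at 20 weeks (median 0.50). Dse, the epimerase that makes dermatan sulfate, rose at 28 weeks from 23.6 ± 3.47 to 57.8 ± 11.1 CPM (log2 1.29, SE 0.19; edgeR, adjusted p = 0.0073). The 20-week log2 fold changes were -0.33 (SE 0.18) for Hs6st1, 0.86 (SE 0.42) for Hs6st2 and 0.74 (SE 0.30) for Dse, none of them called.

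Other heparin-binding growth factors gave a mixed picture beside Ptn. Of 20 tested, 4 rose and 3 fell at 28 weeks (median 0.13) and 3 rose and 2 fell at 20 weeks (median 0.06). The platelet-derived growth factor Pdgfb fell at 28 weeks from 425 ± 11.4 to 119 ± 26.4 CPM (log2 -1.83, SE 0.18; edgeR, adjusted p = 0.00324). Bmp7, a growth factor of nephron progenitors and podocytes, fell from 33.6 ± 10.4 to 5.41 ± 0.943 CPM (log2 -2.63, SE 0.27; edgeR, adjusted p = 0.00343). The 20-week log2 fold change was -0.69 (SE 0.35) for Pdgfb, not called, and -1.44 (SE 0.22) for Bmp7, called lower. Of 9 tested glypicans and other heparan sulfate proteoglycans, edgeR called 0 higher and 1 lower at 28 weeks (3 at an unadjusted p under 0.05; DESeq2 2 lower, limma on FPKM 1 lower; median 0.08), and 2 rose at 20 weeks (median 0.47). The gene that fell was Col18a1, a basement membrane collagen with heparan sulfate chains (594 ± 148 to 98.2 ± 40.3 CPM, log2 -2.60, SE 0.34; edgeR, adjusted p = 0.00595). Its 20-week log2 fold change was -0.86 (SE 0.58), not called.

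The genes whose profile over the 12 libraries was nearest to that of Ptn were Rgs5, P2rx1, Bmp4 and Tspan15. Likeness was measured as the root mean square difference between log2(CPM + 0.5) profiles, each centred on its own mean, among 10554 genes averaging 5 CPM or more. The difference from Ptn was 0.31 for Rgs5, 0.47 for P2rx1, an ATP-gated channel of smooth muscle, 0.56 for Bmp4, a heparin-binding growth factor of the TGF-beta family, and 0.58 for the tetraspanin Tspan15, against a median of 1.65 over all genes. For Rgs5 the 20-week controls gave 18.6, 23.1 and 13.3 CPM, the knockouts 148, 168 and 345 CPM. The 28-week controls gave 12.0, 27.0 and 26.5 CPM for Rgs5, the knockouts 101, 294 and 141 CPM. The order of the 3 libraries was the same for Rgs5 and Ptn in 3 of the 4 groups, and in the controls of 20 weeks libraries 1 and 2 changed places. Rgs5 was picked as the nearest gene over these same libraries, so its closeness, within groups as well, is set by that choice and is a description. The 12 libraries also share the genotype contrast, so likeness to Ptn selects genes that differ between the genotypes.

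**Figure D4:**
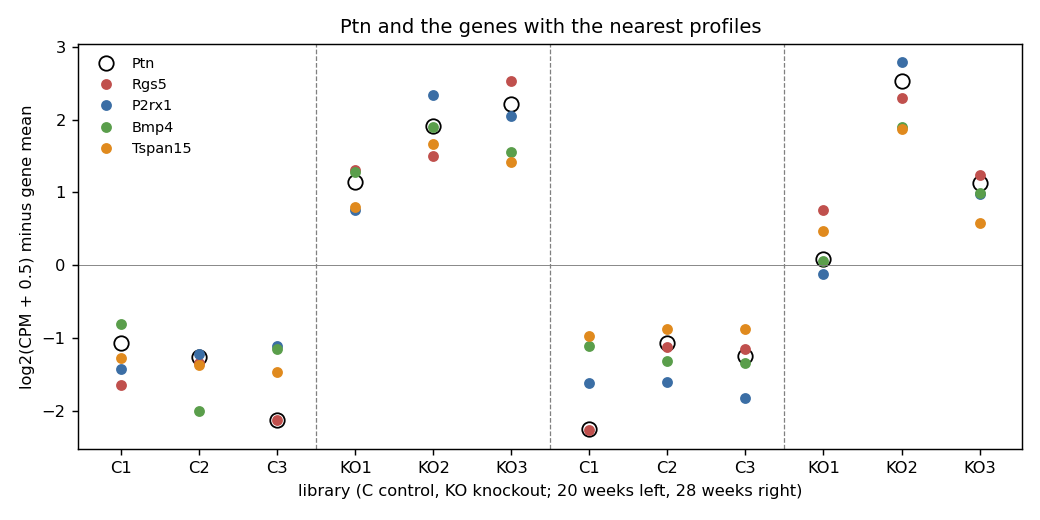
Log2(CPM + 0.5) minus the mean of each gene over the 12 libraries, for Ptn (open circles) and the 4 genes with the nearest profiles (filled), with 20 weeks in the left 2 blocks and 28 weeks in the right 2. Rgs5 and Ptn lie close together in most libraries, low in control 3 at 20 weeks and control 1 at 28 weeks.

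Mdk had a much flatter profile, with a spread of 0.39 over the 12 libraries against 1.65 for Ptn on the same scale. The genes nearest to Mdk were Pgp, Fth1, Fhl2 and Rsu1, with differences of 0.17 to 0.18 against a median of 0.47 over all genes. The added 0.5 CPM narrows differences at the level of Mdk, so its spread is understated. These neighbours average 5 CPM or more and are narrowed less. Their log2 fold changes at 28 weeks were 0.51 to 0.81, against 1.08 for Mdk. Pgp encodes a metabolic phosphatase, Fth1 the ferritin heavy chain, Fhl2 a LIM domain cofactor and Rsu1 an adhesion protein. As for Mdk, none of the 4 was called at 28 weeks by edgeR (adjusted p from 0.0679 to 0.142). All 4 passed without knockout 1 (0.0129 to 0.0169), and each in only that 1 of the 6 fits without 1 library. Fth1 and Rsu1 also passed with DESeq2 (0.0145 and 0.0429) and in the edgeR model of 12 libraries (0.0416 and 0.0398).

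Smooth muscle marker sums were higher in all knockouts than in all controls at both ages, as Ptn was, while pericyte and fibroblast sums were so at 20 weeks and overlapped at 28 weeks. Summed over 9 smooth muscle genes the level was 4646 to 5008 CPM in controls and 9837 to 13965 CPM in knockouts at 20 weeks, and 3265 to 3387 and 7157 to 15631 CPM at 28 weeks, where 6 of the 9 were called higher. Myh11, picked after its values were seen, was at 3.54 to 8.91 CPM in the controls of 28 weeks. In knockouts 1 to 3 of that age it was at 2.41, 75.1 and 71.6 CPM. Acta2 and Tagln carried the smooth muscle sum. Among the knockouts of 28 weeks both that sum and Ptn were highest in library 2 and lowest in library 1, but among those of 20 weeks the sum was highest in library 2 and Ptn in library 3. Summed over 10 pericyte and mesangial genes, Rgs5 among them, the level was 299 to 386 CPM in controls and 828 to 953 CPM in knockouts at 20 weeks, and 270 to 499 and 330 to 752 CPM at 28 weeks, where 1 of 10 was called higher. That gene was Rgs5 itself, picked for its likeness to Ptn. Of the 10, 5 had positive log2 fold changes at 28 weeks, with a median of 0.01. Fibroblast genes summed to 442 to 1600 and 2592 to 3945 CPM at 20 weeks and to 480 to 1294 and 1258 to 2804 CPM at 28 weeks, with 3 of 7 tested called higher and 1 lower at 28 weeks. Of the fibroblast markers, picked after their values were seen, the proteoglycan Dcn was at 0.41 to 0.828 CPM in controls and 3.45 to 14.6 CPM in knockouts at 28 weeks, and the collagen Col3a1 at 17.7 to 35.4 and 141 to 321 CPM. Pdgfra went the other way at that age, at 7.35 to 8.37 CPM in controls and 0.282 to 2.44 CPM in knockouts. Lum, a further matrix proteoglycan, was at 0 in 9 of the 12 libraries. The part of these cells in the level of Ptn was not tested.

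Podocyte markers were present, their sum higher in knockouts at 20 weeks and overlapping at 28 weeks. Summed over 17 podocyte genes the level was 1517 to 2631 CPM in controls and 3271 to 4704 CPM in knockouts at 20 weeks, but 2051 to 3910 and 1195 to 3334 CPM at 28 weeks, with 4 of 17 called lower and none higher. At 20 weeks 6 of 17 were called higher and 1 lower. Cd2ap went down at that age, with 380 to 476 CPM in controls and 130 to 269 CPM in knockouts. So did Cdkn1c, with 37.5 to 90.2 and 9.68 to 17.7 CPM. In 3 of the 4 groups the podocyte sum put the 3 libraries in the same order as Ptn, and in the controls of 28 weeks in the opposite order, control 1 having the highest podocyte sum and the lowest Ptn. The part of podocytes in the level of Ptn was not tested. Nephrin (Nphs1) was low, at 1.45 to 7.49 CPM at 20 weeks and 0.914 to 15.2 CPM at 28 weeks. Tubule marker sums over 11 genes overlapped at 20 weeks, at 407 to 887 CPM in controls and 55.0 to 622 CPM in knockouts, where edgeR called 0 of 6 tested genes (1 at an unadjusted p under 0.05, and 1 lower by DESeq2 and by limma on FPKM). At 28 weeks, where 9 of the 11 were listed, they did not overlap, at 1252 to 1687 and 27.9 to 563 CPM, and 2 of 9 tested genes were called lower. Cdh1, Cdh16 and Epcam carried the tubule sums, while Umod was never above 1.29 CPM and Lrp2 never above 8.94 CPM. Parietal epithelial markers overlapped at both ages, at 2550 to 5192 and 594 to 2573 CPM at 20 weeks and 2479 to 6787 and 639 to 9631 CPM at 28 weeks, at each age through knockout 1 alone. Of the 8 genes 4 were called lower at 20 weeks and 2 at 28 weeks.

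Schwann cells and other glia are known sources of Ptn and Ptprz1 in other tissues. The glial marker Sox10 was never above 0.0851 CPM, and the part of glia in the level of Ptn was not tested. The sum of the 10-gene glial list, carried by Mbp and Erbb3, was 67.5 to 103 CPM in controls and 14.0 to 50.7 CPM in knockouts at 20 weeks and 113 to 153 and 8.51 to 16.7 CPM at 28 weeks, lower in knockouts. Mesothelial sums were lower as well, at 231 to 623 and 34.9 to 96.7 CPM at 20 weeks and 537 to 594 and 12.8 to 180 CPM at 28 weeks. Endothelial and leukocyte sums overlapped between genotypes at 20 weeks, at 66.5 to 78.8 against 70.3 to 114 CPM and at 17.4 to 148 against 21.9 to 60.2 CPM. At 28 weeks they were 92.9 to 98.1 against 44.5 to 137 CPM for endothelial genes and 22.0 to 38.4 against 44.8 to 104 CPM for leukocyte genes.

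**Figure D5:**
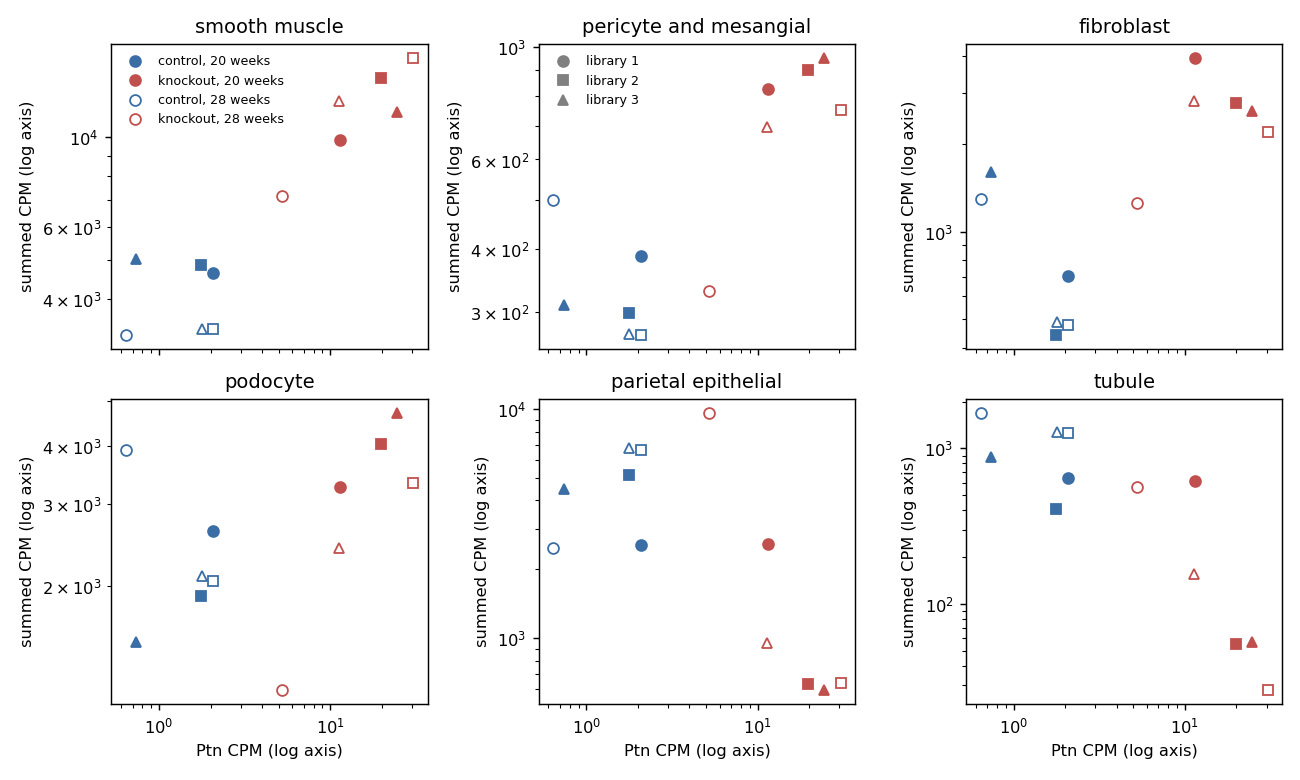
Summed CPM of 6 marker lists (y axis, log) against Ptn CPM (x axis, log) in each library, controls blue and knockouts red, 20 weeks filled and 28 weeks open, shape by library number. Smooth muscle sums are above 7157 CPM in all knockouts and at most 5008 CPM in all controls, while podocyte sums overlap at 28 weeks.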

How the data were processed

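Counts and FPKM of 12 libraries, 3 per genotype and age, were used. Per the file headers, the authors deposited 1 table of raw counts and 1 of FPKM for either age. The deposited FPKM equals the count divided by a gene length and the column total, the implied length being the same in all 6 libraries of a gene within a relative tolerance of 1e-06. The build was GRCm38 (mm10), per the submitters' processing notes, whereas the aligner, the counting tool and its strand setting were not stated.

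The 2 ages were fitted separately in R 4.3.3, using edgeR 4.0.16 (filterByExpr, TMM scaling, quasi-likelihood F test, no block). A gene was called where the p adjusted by Benjamini and Hochberg over the whole table was under 0.05. SE is the fold change over the square root of F. A model of 12 libraries gave differences between ages. Alternatives used DESeq2 1.42.0, limma 3.58.1 on log2(FPKM + 0.1 or 1), other scalings and filters, and left out each library. The edgeR script was tested on simulated data.

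Depending on the library, 0 reads allow levels up to 0.0732 to 0.0989 CPM (3 counts). PCR copies cannot be recognised, so limits and intervals cover counting error only. Lists are described by counts and medians, with no set test. From each list, the called genes with the smallest p at 28 weeks, at most 4, could be named, and the first 1 to 4 were. Members and lists were chosen with earlier results of these data known.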

Additional observations from a re-analysis of the deposited data

How the results depend on the processing

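The log2 fold change of Ptn was positive under all alternatives at both ages. At 28 weeks it lay between 2.44 and 3.76 with 1 library left out, and was called in 2 of 6 such fits; with control libraries 2 and 3 summed it was 3.58 and not called. On the log2(FPKM + 1) scale, which understates low genes, it was 2.57 for Ptn and 0.21 for Mdk at 20 weeks. Without a filter on the log2(FPKM + 0.1) scale Ptprz1 was at 0.28 there. Leaving out 1 library moved Mdk between 0.29 and 0.69 and Ptprz1 between 0.25 and 1.36 at 20 weeks, Mdk between 0.84 and 1.41 and Sdc3 between -0.0068 and 0.79 at 28 weeks, the lowest without knockout 3; the cause was not tested. The filter of 1 CPM in 3 libraries left out Mdk and Ptprz1 at 28 weeks.

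Counts over all genes moved most. At 20 weeks 711 genes were called higher and 762 lower. DESeq2 called 1135 and 1266, limma on log2(FPKM + 0.1) without a filter 430 higher, and fits without 1 library 262 to 780 higher and 255 to 1243 lower. At 28 weeks 1400 and 1783 were called, with control libraries 2 and 3 summed 456 and 843, and without 1 library 444 to 1480 and 822 to 1894. With the replicate number as a block, 86 and 246 genes were called at 28 weeks and Ptn was at 3.20 (edgeR, adjusted p = 0.0455). The calls of Sdc2, Itgb1, Hs6st1, Hs6st2, Dse and Cntn1 ended with that block (edgeR, adjusted p 0.0523 to 0.162). Of the same-numbered libraries, only those numbered 2 at 20 weeks deviated in the same direction (correlation 0.40). The other correlations were -0.10 and -0.13 at 20 weeks and -0.62, -0.17 and -0.55 at 28 weeks. Differently numbered libraries reached 0.46 at 20 weeks and 0.63 at 28 weeks, so the numbers are not taken as pairs. Depth limits Alk and Ptprz1, and 3 libraries per group limit Ptn.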
